A study of Mus musculus with 15 samples.

Results

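Class B is a class of genes that the study's authors marked in their deposited table of 560 genes induced by lipid A in mouse macrophages. The gene set described here is the Class B genes less those left out by their names. Of the 560 classed genes 56 were Class B, 10 of these were left out by name (Cd44, Csf2, Ifnb1, Lif, Nfkb1, Ptch1, Slc25a37, Slc44a1, Slc4a7 and Slc7a11), and 46 remained. The set was chosen from the measurements themselves: the smallest rise of any classed gene, as the highest whole-gene chromatin value over the 0 min one, was 5.01-fold, and how the authors drew the line between classes is not given in the sources used here. Since this rise and the shared timing were in chromatin RNA, chromatin values of the 46 genes are treated here as part of their choice and given as a description. Whether the nucleoplasmic and cytoplasmic values also had a part in it is not given either.

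The cells were bone marrow-derived macrophages, grown from the marrow of C57BL/6 mice of mixed sex for 6 days in medium with serum and the growth factor M-CSF. They were unstimulated (0 min) or had received lipid A at 100 ng/ml, the part of bacterial lipopolysaccharide that Toll-like receptor 4 binds, for 15, 30, 60 or 120 min. At each of the 5 times RNA was taken from 3 fractions of the cell: the chromatin pellet, the nucleoplasm (the soluble part of the lysed nuclei) and the cytoplasm. That gave 15 libraries, 1 per fraction and time, so no difference between times within a fraction has a replicate check, no test was run between times or fractions, and counting error is the sole error behind the intervals printed. Counted in M reads, libraries held 38.8 to 52.3 for chromatin, 24.5 to 31.4 for nucleoplasmic and 15.6 to 19.9 for cytoplasmic RNA. Of 12 macrophage marker symbols 10 were listed, and Adgre1, not listed, names the same gene as the listed Emr1. Cytoplasmic values at 0 min were 1678 RPKM for Lyz2, 327 RPKM for Cd68 and 81.5 RPKM for Csf1r. The table listed 0 of 5 dendritic cell, 0 of 4 erythroid, 1 of 6 stromal, 2 of 6 B cell, 2 of 7 T cell and 7 of 11 neutrophil markers. Summed macrophage markers ranged from 1565 to 3300 RPKM over the cytoplasmic libraries, neutrophil markers from 32.3 to 69.2 RPKM, T cell markers (Cd28 and Lck) from 8.45 to 26.1 RPKM and B cell markers from 20.6 to 37.2 RPKM. The T cell sum ranged from 30.8 to 117 RPKM over the nucleoplasmic libraries. The part of other cells in the results was not tested. In RNA from whole cultures, fewer cells that express a gene and less RNA per cell cannot be told apart.

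A gene's RNA is made by RNA polymerase II, which travels along the gene from the start to the end at a limited speed, so that the first intron of a long gene is copied well before its last exons. Introns are removed largely while the transcript is still bound to chromatin, and the finished messenger RNA is then released into the nucleoplasm and exported to the cytoplasm. In macrophages, Toll-like receptor 4 switches on a first wave of genes within minutes and further waves later, and the chromatin fraction shows transcripts in the making while the cytoplasmic fraction holds mostly the finished product.

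Values are given as RPKM, reads relative to the counted length and to the size of the library. Whole-gene values count reads over the full gene, introns included, and exist for all 46 genes. Exon values count reads relative to exon length and exist for 45, all but Jdp2. A change is the log2 ratio of RPKM + 0.5 at a stimulated time to RPKM + 0.5 at 0 min within a fraction. The added 0.5 makes changes of low genes look smaller. Folds with an interval are plain ratios of RPKM. A call, higher or lower, needed a change of at least 4-fold in 1 or more of the 4 stimulated libraries, and 1 RPKM or more somewhere in that fraction. The median of all genes in the exon table shifted by -0.11, -0.40, -0.47 and -0.34 (log2) at 15, 30, 60 and 120 min in chromatin RNA, by -0.07, -0.17, -0.18 and -0.47 for the nucleoplasm and by 0.04, 0.14, 0.39 and -0.49 for the cytoplasm. Values with these shifts taken out are called rescaled.

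The Class B genes were long. Their median length was 49.1 kb, from 0.983 kb for Rep15 to 321 kb for Hivep3, and 22 of 46 were longer than 50 kb. Over all 560 classed genes the median was 17 kb and 99 were longer than 50 kb. Classes A1 and A2 had medians of 3.99 kb (16 genes) and 20.7 kb (58 genes), and Class C 9.59 kb (98 genes). Not every Class B gene was long, since 4 that are described below, Rep15, Nupr1, Lcat and Cdk5r1, had 0.983 kb, 2.23 kb, 3.85 kb and 4.13 kb. The authors' promoter label was CpG (rich in CG pairs) for 34 of the 46 genes, or 73.9%, and LCG (low in CG) for 12. The CpG label was given to 84.5% of Class A2, 58.2% of Class C and 55.4% of all classed genes.

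RefSeq promoter windows, from 250 bases before to 50 bases after the start, were found for 38 of the 46 genes, with 49 windows in all (build GRCm38.p6). For the ratio of observed to expected CG pairs, the window with the highest ratio was taken for each of these genes. The median was 0.82 over 28 genes with the CpG label and 0.47 over 10 genes with the LCG label. Over 32851 single windows of all genes, with no highest one taken, it was 0.38, so the 2 kinds of median are not strictly alike. It did not split the labels cleanly. Of the genes labelled CpG 23 of 28 exceeded a ratio of 0.6, and of those labelled LCG 4 of 10 did. Windows of the same gene could differ, as for Myo10, labelled CpG (0.91 and 0.35), and Aebp2, labelled LCG (0.77, 0.23 and 0.22). The 4 windows printed first are those of the 2 genes of each label with the largest chromatin change, with every CG pair in capitals. They show how wide each label is.
Ccrn4l (chr3:51224197-51224496, plus strand): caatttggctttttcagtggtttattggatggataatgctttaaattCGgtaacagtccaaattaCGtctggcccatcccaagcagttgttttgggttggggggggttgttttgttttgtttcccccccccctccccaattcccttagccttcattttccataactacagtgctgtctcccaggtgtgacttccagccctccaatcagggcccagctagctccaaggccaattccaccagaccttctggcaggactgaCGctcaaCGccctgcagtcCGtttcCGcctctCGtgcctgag
Jdp2 (chr12:85598855-85599154, plus strand): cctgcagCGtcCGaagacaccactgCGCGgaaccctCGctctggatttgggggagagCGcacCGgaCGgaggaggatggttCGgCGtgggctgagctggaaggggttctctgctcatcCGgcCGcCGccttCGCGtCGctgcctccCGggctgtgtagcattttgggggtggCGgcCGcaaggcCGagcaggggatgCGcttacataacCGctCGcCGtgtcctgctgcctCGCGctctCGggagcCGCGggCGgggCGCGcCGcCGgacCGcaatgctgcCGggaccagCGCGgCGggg
Nupr1 (chr7:126625421-126625720, minus strand): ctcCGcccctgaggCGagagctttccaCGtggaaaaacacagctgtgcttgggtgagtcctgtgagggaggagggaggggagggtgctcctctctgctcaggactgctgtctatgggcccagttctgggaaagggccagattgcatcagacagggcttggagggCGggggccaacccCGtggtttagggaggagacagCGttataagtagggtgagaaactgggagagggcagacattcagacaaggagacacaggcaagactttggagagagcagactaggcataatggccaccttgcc
Klf7 (chr1:64121340-64121639, minus strand): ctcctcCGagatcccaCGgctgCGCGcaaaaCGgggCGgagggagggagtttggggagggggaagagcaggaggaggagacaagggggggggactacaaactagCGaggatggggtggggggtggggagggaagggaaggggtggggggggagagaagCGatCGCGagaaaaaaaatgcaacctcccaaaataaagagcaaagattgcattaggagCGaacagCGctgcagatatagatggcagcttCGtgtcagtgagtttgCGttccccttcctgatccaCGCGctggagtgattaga
Jdp2 has 39 CG pairs in its window (1 of 3 windows of this gene) and a ratio of 1.02, while Ccrn4l, also labelled CpG, has 7 and a ratio of 0.36, the lowest among the genes of that label. Nupr1, labelled LCG, has 6 pairs and a ratio of 0.25, while Klf7, also LCG, has 16 and a ratio of 0.74. The RefSeq start used for a window need not be the start the authors used.

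A search of the windows on both strands for 7 short motifs found GGGCGG, the core of the GC box, in 33 of 49 windows (67.3%) against 35.7% of all windows. GGGCGG itself holds a CG pair, and the windows of all genes were not matched for CG content. Their median CG ratio was 0.38, against 0.82 for the 28 genes labelled CpG, so the difference is not read as a trait of Class B. TATAAA stood in 3 windows (6.12%; 13.6% of all windows) and TTCNNNGAA in 5 (10.2% against 8.30%). The AP-1 type motif TGANTCA stood in 2 windows (4.08% against 7.81%), and TGACGTCA, the cyclic AMP response element, in 1 (2.04% against 1.79%). No window held the form of the NF-kappaB motif that was searched (1.63% of all windows) or the CArG box (1.63%). The last 2 windows printed show Ell2 and Prdm1, whose TGACGTCA and TGANTCA motifs, in capitals, begin 198 and 48 bases before the start.
Ell2 (chr13:75707234-75707533, plus strand): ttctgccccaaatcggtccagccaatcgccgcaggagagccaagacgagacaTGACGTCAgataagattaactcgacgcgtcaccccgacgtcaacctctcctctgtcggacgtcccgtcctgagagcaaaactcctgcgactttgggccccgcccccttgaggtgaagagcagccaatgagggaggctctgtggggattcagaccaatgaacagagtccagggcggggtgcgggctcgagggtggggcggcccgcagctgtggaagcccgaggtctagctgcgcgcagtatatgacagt
Prdm1 (chr10:44458699-44458998, minus strand): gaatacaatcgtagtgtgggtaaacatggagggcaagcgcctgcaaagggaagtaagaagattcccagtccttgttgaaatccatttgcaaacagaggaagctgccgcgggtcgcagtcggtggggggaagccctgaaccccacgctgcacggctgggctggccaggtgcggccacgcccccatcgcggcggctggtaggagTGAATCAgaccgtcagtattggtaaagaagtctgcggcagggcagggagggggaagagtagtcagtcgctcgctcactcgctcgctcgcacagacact
These matches are descriptions of letters in the window and not of binding.

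In chromatin RNA the whole-gene values of all 46 genes were highest at 30 or 60 min and had come down by 120 min. The highest value exceeded the 0 min value 5.15-fold (Ppfibp1) to 184-fold (Cav1), with a median of 8.41-fold. It came at 30 min in 9 genes: Ell2, Pvr, Jag1, Itgav, Stk40, St3gal1, Hivep1, Klf7 and Plscr1. It came at 60 min in the other 37. These were Cdk5r1, Ccrn4l, Prdm1, D8Ertd82e, Clcf1, Jdp2, Foxp4, Phldb1, P2ry2, Dyrk2, Fchsd2, Ankrd33b, Swap70, Adora2b, Bcor, Oaf, Denr, Myo10, Fam129a, Ezr, Sertad2, Sh3bgrl2, Septin11, Stim2, Ppfibp1, Ttc39c, Col18a1, Rep15, Nupr1, Cav1, Zhx2, Rhof, Hivep3, Aebp2, Akna, Atp2b4 and Lcat. Some of the 30 and 60 min values lay close together, as for Hivep1 with 5.05 and 4.84 RPKM, and after rescaling 8 genes were highest at 30 min and 38 at 60 min.

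The exon values of the same chromatin libraries were highest at the same time as the whole-gene values in most genes and later in others. They were highest at 30 min in 2 genes, at 60 min in 38 and at 120 min in 5 (Denr, Myo10, Fam129a, Stim2 and Itgav). If transient means any fall from the highest value by 120 min, the word holds for the whole-gene values of all 46 genes. It does not hold for the exon values of these 5 (of 4 after rescaling). The size of the fall varied. Whole-gene values at 120 min were 4.66% (Cav1) to 61.8% (Dyrk2) of the highest. Exon values of the genes highest before 120 min were 8.61% (Rep15) to 95.1% (Fchsd2) of it. By exon values 33 of 45 genes were called higher in chromatin RNA, beside 6.51% of all 8881 genes tested, and 0 were called lower, beside 3.91%. By time, 1 gene was called at 15 min (0.822% of all genes), 10 at 30 min (2.15%), 33 at 60 min (2.53%) and 10 at 120 min (5.19%). On the whole-gene scale 35 of 46 were called, beside 80.7% of the 560 classed genes. Nothing is read from these chromatin counts, because chromatin RNA is taken to have chosen the genes.

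In nucleoplasmic RNA 21 of the 45 genes were called higher, beside 4.84% of all 9317 genes tested, and 0 lower, beside 2.81%. In cytoplasmic RNA 24 of 45 were called higher, beside 4.48% of all 9239 genes, and 0 lower, beside 1.88%. The filter of 1 RPKM passed 43 genes in nucleoplasmic RNA (not Rep15 and Lcat) and 42 in cytoplasmic RNA (not Rep15, Lcat and Col18a1). Rescaled, 43 genes were called in chromatin (9.23% of all genes), 29 in nucleoplasmic (6.69%) and 28 in cytoplasmic RNA (5.77%). On the whole-gene scale 8 of the 32 Class B genes that reached 1 RPKM were called in nucleoplasmic RNA, beside 59.8% of 450 classed genes tested, and 6 of 25 in cytoplasmic RNA, beside 60.3% of 368. Leaving out the 60 min libraries gave 17 exon calls in chromatin (6.19% of all genes), 12 in nucleoplasmic (4.44%) and 12 in cytoplasmic RNA (3.72%). At 2-fold the exon calls were 45 (15.9%), 42 (10.4%) and 40 (13.3%). Rescaling ended the cytoplasmic call of Adora2b and Jag1 and no other call of these genes.

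The timing differed by fraction. Calls in nucleoplasmic RNA numbered 0 at 15 min (0.343% of all genes), 2 at 30 min (1.01%), 14 at 60 min (2.1%) and 12 at 120 min (4.07%). Calls in cytoplasmic RNA numbered 0 (0.238%), 1 (0.974%), 18 (2.63%) and 12 (3.36%) at the same times. The median exon log2 ratio of the 45 genes was 0.07, 1.26, 2.37 and 1.48 at the 4 times in chromatin RNA. For nucleoplasmic RNA it was -0.09, 0.10, 1.39 and 1.66, and for the cytoplasm 0.05, 0.44, 1.84 and 1.54. At 30 min the median had moved by more than 2-fold in chromatin RNA alone. The fall of the cytoplasmic median between 60 and 120 min rests on the scaling, since the rescaled medians at these times were 1.45 and 2.03.

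**Figure D1:**
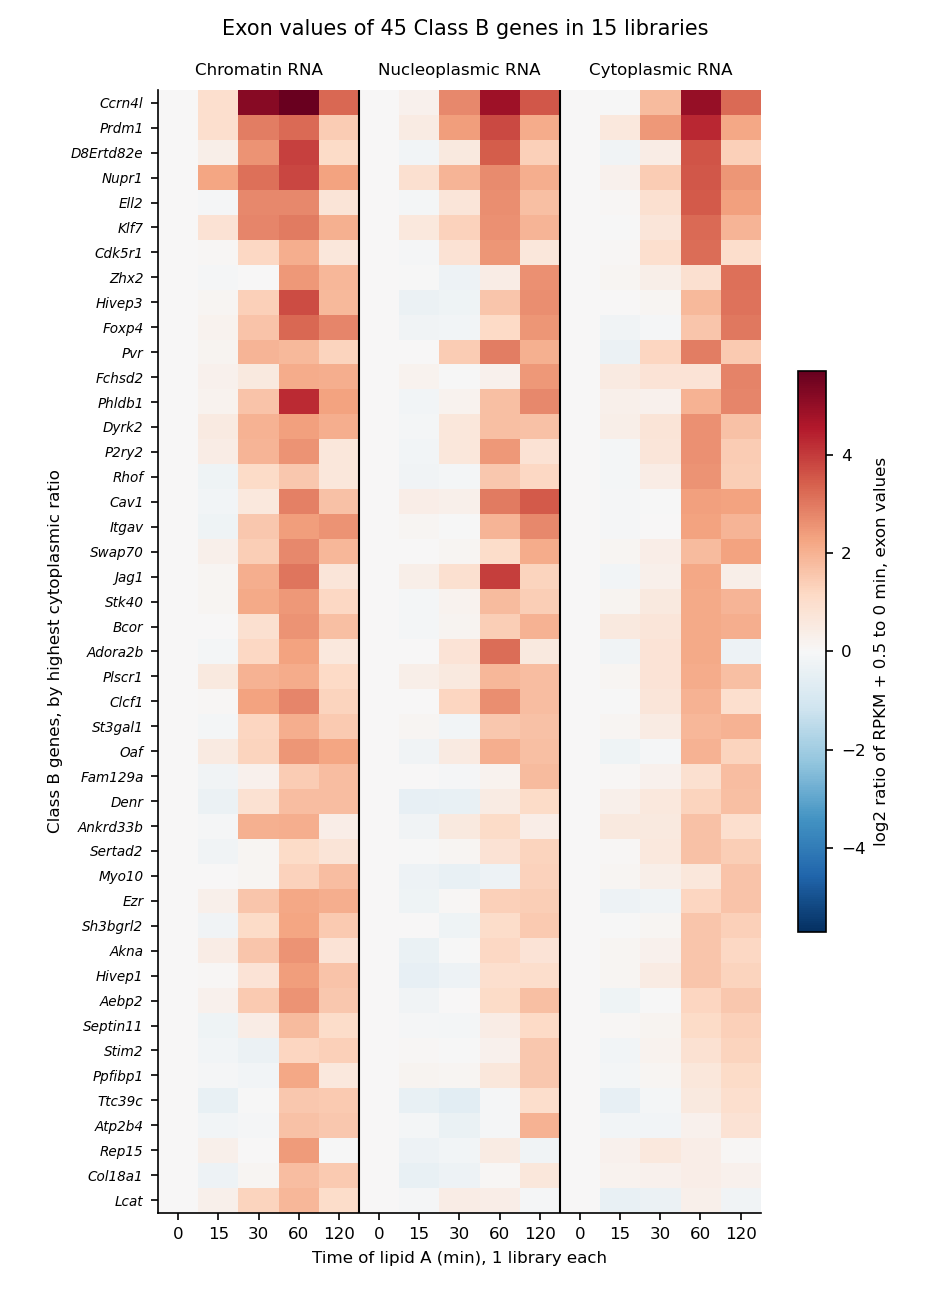
Each row is 1 of the 45 Class B genes with exon values and each column 1 of 15 libraries, and colour gives the log2 ratio of RPKM + 0.5 to the 0 min library of the same fraction. Colour sets in at 30 to 60 min in chromatin RNA and mostly at 60 or 120 min in the other fractions, with Ccrn4l highest in the cytoplasm at 4.95.

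The Class B medians may be set beside those of other classes of induced genes. At 30 min in chromatin RNA, Class A2 (56 genes) stood at 2.68 and Class C (96 genes) at 3.07, against 1.26 for Class B. At 120 min in cytoplasmic RNA the medians were 0.62 for Class A2, 2.56 for Class C and 1.54 for Class B. Class B thus lay below both at 30 min and between them at 120 min. Chromatin RNA is taken to have set the classes, all sets share the same 0 min libraries, and no difference between the sets was tested.

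**Figure D2:**
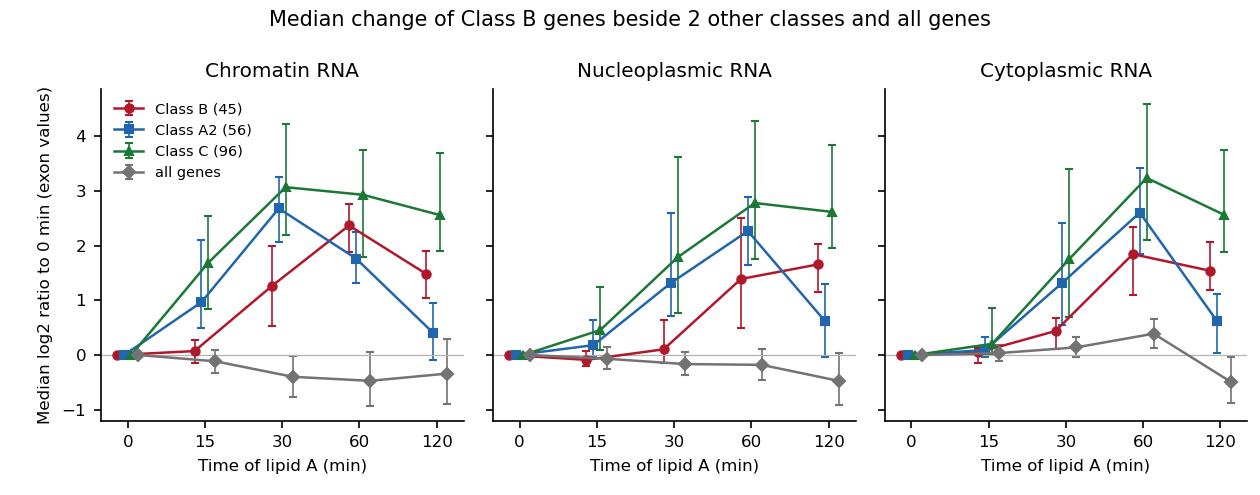
Points are the median log2 ratio to 0 min of exon values in each fraction, and bars run from the lower to the upper quartile over genes, for Class B (45 genes), Class A2 (56), Class C (96) and all genes that pass the filter. Class B rises from 30 min in chromatin RNA and from 60 min in the other fractions, and at 120 min lies between Class A2 and Class C.

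Regulators of transcription and chromatin formed a group of 13 genes, of which 12 had exon values. Of these 12, 8 were called higher in cytoplasmic RNA (9 when rescaled) and 7 in nucleoplasmic RNA (9). Over all genes 4.48% (5.77% rescaled) and 4.84% (6.69%) were called. The role groups were drawn up with values known, and no difference between them was tested. Values that follow are exon RPKM at 0, 15, 30, 60 and 120 min unless said otherwise. Prdm1 encodes Blimp-1, a repressor of transcription. Its values were 0.833, 2.08, 9.42, 12.2 and 3.17 in chromatin RNA. They were 1.11, 1.74, 7.86, 21.3 and 6.47 in nucleoplasmic RNA. Cytoplasmic values were 0.824, 1.5, 6.89, 25.2 and 5.64, 30.6-fold (95% counting interval 24 to 39.7) higher at 60 min than at 0 min. Prdm1 was already raised at 30 min in all 3 fractions, highest at 60 min in each, and fell by 120 min in each.

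Ell2 is an elongation factor of RNA polymerase II. In chromatin RNA it stood at 4.79, 4.61, 34.8, 34.5 and 8.33. The nucleoplasmic values were 4.98, 4.54, 8.38, 33.9 and 17.7. In the cytoplasm Ell2 reached its highest at 60 min with 6.63, 6.96, 13.1, 81.1 and 35.7, a rise of 12.2-fold (95% counting interval 11 to 13.6). Chromatin exon values of Ell2 at 30 and 60 min were almost the same, while the other fractions were low until 60 min.

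Klf7, a Krüppel-like transcription factor, had chromatin values of 4.92, 9.14, 37, 41.2 and 21.5. Its nucleoplasmic values were 2.59, 4.13, 7.09, 18.1 and 11.3. Its cytoplasmic values were 2.89, 2.82, 4.93, 30.9 and 12.5. The 60 min library was the highest in each fraction. Nupr1, a small stress-induced protein of the nucleus and 1 of the shortest genes of the set, had chromatin values of 6.36, 31.8, 59.9, 96.8 and 33.4. Nucleoplasmic values for Nupr1 were 9.84, 19.2, 39.2, 65.9 and 43.2. Cytoplasmic RNA gave 8.82, 10.5, 25, 108 and 53.3. Nupr1 was the gene called at 15 min in chromatin RNA, and its cytoplasmic RNA at 120 min was 49.5% of the 60 min value (91.2% rescaled).

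Jdp2, a repressor of the AP-1 family, had whole-gene values only. They were 0.774, 1.2, 14.4, 26.3 and 2.09 RPKM in chromatin RNA. In nucleoplasmic RNA they were 0.17, 0.28, 1.48, 3.31 and 0.766 RPKM. In cytoplasmic RNA they were 0.236, 0.209, 0.334, 2.27 and 1.2 RPKM. All 3 fractions were highest at 60 min. The whole-gene scale counts introns in the length, which lowers the value of spliced RNA.

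Zhx2 and Hivep3 are zinc finger proteins that regulate transcription and come from long genes of 145 kb and 321 kb. Zhx2 had chromatin values of 0.433, 0.38, 0.45, 4.6 and 2.96. In the nucleoplasm it stood at 0.825, 0.793, 0.589, 1.28 and 7.44. Cytoplasmic Zhx2 was at 0.983, 1.1, 1.39, 2.32 and 12.6, 12.8-fold (95% counting interval 10.0 to 16.7) higher at 120 min than at 0 min. The chromatin exon value of Zhx2 had not moved at 30 min although its whole-gene value had gone from 0.270 to 2.07 RPKM. Hivep3 had chromatin values of 0.501, 0.58, 2.08, 12.7 and 3.15. In nucleoplasmic RNA its values were 0.961, 0.66, 0.745, 3.9 and 8.73. In cytoplasmic RNA they were 1.27, 1.31, 1.4, 5.83 and 14.8. Between 60 and 120 min Hivep3 fell by 1.86 in chromatin RNA on the log2 scale and rose by 1.07 in nucleoplasmic and 1.27 in cytoplasmic RNA.

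Bcor, a corepressor that binds BCL6, had chromatin values of 1.32, 1.36, 2.88, 10.4 and 5.54. Its nucleoplasmic values were 4.85, 4.42, 5.5, 13.5 and 20.7, which stayed just under the 4-fold line at a log2 ratio of 1.99 (2.46 and called when rescaled). Bcor in the cytoplasm was at 1.69, 2.71, 3.0, 9.33 and 8.71. Aebp2, a partner of the Polycomb complex PRC2, had chromatin values of 4.77, 5.68, 14.1, 30.3 and 14.9. It had nucleoplasmic values of 9.38, 7.99, 9.54, 20.5 and 31.6. Its cytoplasmic values, not called, were 11.7, 9.81, 11.5, 28 and 34.9. Rescaled, Aebp2 was called in nucleoplasmic and cytoplasmic RNA at 2.17 and 2.03. Both genes were highest in nucleoplasmic RNA at 120 min, when their chromatin values had fallen to 53.5% and 49.1% of the 60 min level. Foxp4, a forkhead factor, reached a cytoplasmic log2 ratio of 3.01 at 120 min. Hivep1, Akna and Sertad2, which were not called in cytoplasmic RNA, had highest log2 ratios of 1.59, 1.59 and 1.65.

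Receptors, ligands and other surface or secreted proteins numbered 7. Of these, 6 were called in nucleoplasmic RNA and 5 in cytoplasmic RNA (3 when rescaled), beside 4.84% and 4.48% (5.77% rescaled) of all genes. Adora2b, the adenosine A2B receptor, had chromatin values of 0.389, 0.332, 1.51, 3.85 and 0.853. Nucleoplasmic RNA gave 1.13, 1.17, 2.27, 14.5 and 1.88. In the cytoplasm, where it had 11 reads at 0 min and 8 at 120 min, its values were 0.383, 0.259, 1.02, 3.4 and 0.219. The 60 min library was the highest in all 3 fractions, with the 30 min library between it and 0 min in each. At 120 min 13% of the nucleoplasmic and 6.43% of the cytoplasmic highest value was left, the least of any called gene of the set in each of these fractions. Its cytoplasmic log2 ratio of 2.14 became 1.75 when rescaled.

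Jag1, a ligand of Notch receptors, had chromatin values of 0.571, 0.667, 4.02, 8.43 and 1.22. Nucleoplasmic Jag1 was at 1.21, 1.63, 2.73, 26.1 and 3.61, 21.6-fold (95% counting interval 18.5 to 25.4) higher at 60 min. Its cytoplasmic values were 0.279, 0.203, 0.443, 3.05 and 0.485. Jag1 peaked like Adora2b, with 13.8% left in nucleoplasmic and 15.9% in cytoplasmic RNA at 120 min, and its cytoplasmic log2 ratio of 2.19 became 1.8 when rescaled. Nucleoplasmic Jag1 stood at 26.1 RPKM against 3.05 RPKM in the cytoplasm at 60 min, each relative to its own library and so not an amount of RNA.

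Itgav, the integrin alpha V subunit, kept its exon RNA on chromatin and in the nucleoplasm to 120 min. Its chromatin values were 9.09, 7.53, 27.4, 50.1 and 55.8. The nucleoplasmic values were 30.4, 33.2, 29.9, 117 and 204. The cytoplasmic values were 2.93, 2.8, 2.98, 16.2 and 12.8. Itgav was highest at 120 min in chromatin and nucleoplasmic RNA and at 60 min in cytoplasmic RNA. Among 22 genes called in both it was the only one highest earlier in the cytoplasm than on chromatin, and this order was lost when rescaled. Its whole-gene chromatin values, by contrast, were 2.15, 3.12, 22.3, 18.1 and 9.14 RPKM, highest at 30 min. Pvr, a surface protein of the nectin family, had chromatin values of 5.7, 6.41, 23.1, 21.6 and 14.6. In nucleoplasmic RNA they were 9.87, 10.1, 27.5, 77.1 and 42. Cytoplasmic Pvr was at 1.76, 1.3, 4.73, 16.3 and 5.84. Pvr, like Jag1, had higher RPKM in the nucleoplasm than in the cytoplasm in every library pair of the same time. RPKM is relative to each library, so this does not compare amounts of RNA between fractions. Summed macrophage markers differed in the same direction, with 11775 to 16021 RPKM in nucleoplasmic and 1565 to 3300 RPKM in cytoplasmic libraries.

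P2ry2, a receptor for extracellular nucleotides, reached log2 ratios of 2.45 in nucleoplasmic and 2.58 in cytoplasmic RNA, both at 60 min. Clcf1, a cytokine of the interleukin 6 family, had 0.0238 to 1.62 RPKM of whole-gene chromatin signal at 0 and 60 min, from 9 and 548 reads. Its exon reads were too few in the cytoplasm to follow it, with 1 read at 0 min and 27 at 60 min. Col18a1, the collagen that gives rise to endostatin, reached 1 RPKM on chromatin and in the nucleoplasm but not in the cytoplasm. Its chromatin values were 0.802, 0.557, 0.922, 3.85 and 3.11. The nucleoplasm had 6.73, 4.94, 5.45, 7.03 and 11. The cytoplasm had 0.369, 0.485, 0.522, 0.632 and 0.539, under the filter of 1 RPKM in all 5 libraries.

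**Figure D3:**
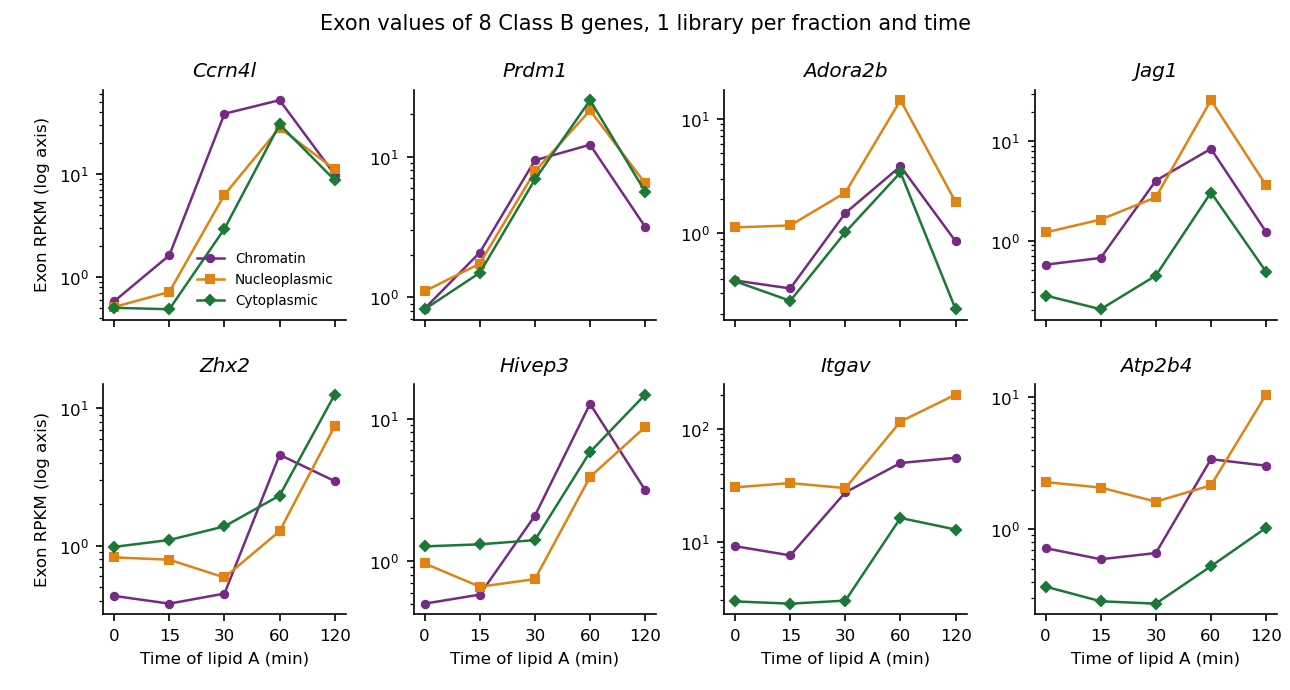
Lines are exon RPKM on log axes in the chromatin, nucleoplasmic and cytoplasmic libraries against time of lipid A, for 8 Class B genes with 1 library per point. Ccrn4l, Prdm1, Adora2b and Jag1 peak at 60 min, while Zhx2, Hivep3 and Atp2b4 are still highest at 120 min in nucleoplasmic and cytoplasmic RNA.

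Kinase, cytoskeleton and membrane-shape proteins numbered 12. Of these, 5 were called in nucleoplasmic RNA (6 when rescaled) and 8 in cytoplasmic RNA (10). The shares over all genes were 4.84% (6.69%) and 4.48% (5.77%). Cdk5r1, which encodes p35, the activator of the kinase Cdk5, had chromatin values of 0.174, 0.208, 1.03, 2.36 and 0.562. Its nucleoplasmic values were 0.142, 0.108, 0.653, 3.14 and 0.519. In the cytoplasm it stood at 0.109, 0.144, 0.678, 5.1 and 0.707, 47-fold (95% counting interval 22.6 to 118) higher at 60 min from 7 reads at 0 min. Cdk5r1 rose and fell together in the 3 fractions, and 13.8% of the cytoplasmic peak was left at 120 min. Its exons make up the whole of the counted gene, so it has no intron reads.

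D8Ertd82e, now named Prag1, is a scaffold of the pseudokinase type. It had chromatin values of 0.469, 0.712, 5.2, 13.9 and 1.57. The nucleoplasmic values were 0.771, 0.632, 1.36, 13.6 and 2.75. The cytoplasmic values were 0.926, 0.724, 1.44, 16.8 and 3.2, 18.2-fold (95% counting interval 14.3 to 23.5) higher at 60 min. This gene was a sharp 60 min transcript in each fraction. Phldb1, a protein with a pleckstrin homology domain, was highest at 60 min on chromatin with 0.235, 0.34, 1.79, 13.3 and 3.13. In nucleoplasmic RNA it was at 0.69, 0.554, 0.885, 3.46 and 7.32. In cytoplasmic RNA it was at 0.517, 0.743, 0.723, 3.5 and 6.57. Phldb1 was higher at 120 than at 60 min in both soluble fractions, while 23.5% of its chromatin peak was left.

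Dyrk2, a kinase, had chromatin values of 2.32, 3.57, 10.7, 13.6 and 11.2. Nucleoplasmic libraries held 6.15, 5.7, 9.8, 21.2 and 20.4. Its cytoplasmic values were 5.02, 6.56, 8.54, 32.7 and 16.9. Dyrk2 was highest at 60 min in each fraction, but its nucleoplasmic values at 60 and 120 min were close, and rescaled the 120 min value was the higher and Dyrk2 was called there at 2.13. Fchsd2, an F-BAR protein that shapes membranes, Swap70, an exchange factor for Rac that binds actin, and Phldb1 were, among the genes of this role group called in the fractions compared, the 3 highest later in both soluble fractions than on chromatin. Ezr, Septin11 and Ppfibp1, not called in the soluble fractions, had the same order of times. The highest cytoplasmic log2 ratios of Fchsd2, Swap70 and Phldb1 were 2.84, 2.28 and 2.80. Rhof, a small GTPase of filopodia, and Stk40, a kinase-like protein, were called in cytoplasmic RNA with 2.54 and 2.18. The motor Myo10, the membrane-to-actin linker Ezr, the filament protein Septin11 and the liprin Ppfibp1 were not called there, with 1.64, 1.61, 1.36 and 1.07. Rescaled, Myo10 and Ezr were called at 2.13 and 2.10.

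Proteins of calcium, lipid and glycan handling numbered 6. Only 1 was called in nucleoplasmic RNA (5 when rescaled) and 2 in cytoplasmic RNA (3). The shares over all genes were 4.84% (6.69%) and 4.48% (5.77%). Cav1, the coat protein of caveolae, had chromatin values of 0.0962, 0.0307, 0.401, 3.8 and 1.42. Its nucleoplasmic values were 0.0473, 0.205, 0.162, 3.77 and 5.62. The cytoplasmic values were 0.155, 0.12, 0.138, 2.83 and 2.73, from 6 exon reads at 0 min and 128 at 60 min. Cav1 was nearly silent at 0 min, with 24 whole-gene chromatin reads, and had the largest whole-gene chromatin rise of the set at 184-fold (95% counting interval 124 to 288). St3gal1, a sialyltransferase, had chromatin values of 4.68, 4.34, 11.6, 21.5 and 14. In nucleoplasmic RNA they were 11.1, 12.1, 10.0, 33.6 and 36.1. In cytoplasmic RNA they were 5.1, 5.59, 7.23, 20.6 and 21.4, a log2 ratio of 1.97 and so just under the line. Rescaled, St3gal1 was called in nucleoplasmic and cytoplasmic RNA at 2.13 and 2.46. Without rescaling, the soluble values of St3gal1 were about the same at 60 and 120 min. This rests on the scaling. The shift of all genes went from 0.39 at 60 min to -0.49 at 120 min in cytoplasmic RNA, and from -0.18 to -0.47 in nucleoplasmic RNA.

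Atp2b4, a calcium pump of the plasma membrane, had chromatin values of 0.72, 0.593, 0.661, 3.4 and 3.03. In nucleoplasmic libraries it was 2.28, 2.07, 1.62, 2.15 and 10.5. The cytoplasm held 0.368, 0.285, 0.273, 0.525 and 1.03. The 120 min library stood apart from the other 4 in nucleoplasmic RNA, with a log2 ratio of 1.99 (2.46 rescaled). Lcat, an enzyme that esterifies cholesterol in plasma lipoproteins, had chromatin values of 0.447, 0.645, 1.76, 2.99 and 1.44. Nucleoplasmic Lcat was at 0.23, 0.187, 0.473, 0.45 and 0.194. Cytoplasmic Lcat was at 0.283, 0.0876, 0.126, 0.444 and 0.185. Lcat was highest on chromatin at 60 min, uncalled by exon values unless rescaled (2.35), and stood under 1 RPKM in all 10 other libraries. Plscr1, a phospholipid scramblase, and Stim2, a calcium sensor of the endoplasmic reticulum, had highest cytoplasmic log2 ratios of 2.12 and 1.25, the first called and the second not.

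Among the 8 other genes Ccrn4l had the largest change. It encodes nocturnin, known as a product of the circadian clock. Chromatin values were 0.581, 1.63, 38.7, 52.4 and 9.9. Nucleoplasmic values were 0.511, 0.715, 6.31, 28.2 and 11.1. Cytoplasmic values were 0.502, 0.486, 2.95, 30.4 and 8.75, 60.6-fold (95% counting interval 40.6 to 94.9) higher at 60 min. Ccrn4l was the gene with the highest log2 ratio in each fraction, and its 30 min value was nearer to the 60 min value on chromatin than in the soluble fractions. Denr, a factor of translation reinitiation, had chromatin values of 1.01, 0.709, 2.27, 4.55 and 4.64. Its nucleoplasmic values were 3.84, 2.68, 2.77, 5.58 and 8.85. Its cytoplasmic values were 4.68, 5.81, 7.27, 12 and 16.4. Denr was highest at 120 min in each fraction without being called in any. Rescaled, it was called in chromatin and cytoplasmic RNA at 2.21 and 2.20, and its chromatin value at 120 min was 93.1% of the highest.

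Rep15, named for its binding to the GTPase Rab15, had chromatin values of 0.376, 0.564, 0.386, 4.27 and 0.368. In nucleoplasmic RNA they were 0.20, 0.0648, 0.123, 0.458 and 0.101. In the cytoplasm, where no library held more than 5 reads, Rep15 was not detectable as changed at this depth. Its chromatin value was raised in the 60 min library alone, from 17 reads at 0 min to 172. Fam129a, now named Niban1, Oaf, Sh3bgrl2, Ankrd33b and Ttc39c had highest cytoplasmic log2 ratios of 1.75, 1.96, 1.60, 1.67 and 0.98, and none of these 5 was called there. Rescaled, Fam129a was called at 2.24.

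The next comparison asked how far each fraction had come down by 120 min. Among genes called in a fraction, the exon value at 120 min was 36.8% of the highest in chromatin RNA (median of 33), 62.1% in nucleoplasmic RNA (median of 21) and 50.5% in cytoplasmic RNA (median of 24). The genes differ between these medians, so they do not compare the fractions gene by gene. The spread was wide, from 8.61% to 100% in chromatin and from 6.43% to 100% in cytoplasmic RNA. By whole-gene values 23.8% was left in chromatin RNA (median of 35). Rescaled, the exon medians were 44.8%, 100% and 100%, and 16 of 29 called nucleoplasmic and 17 of 28 called cytoplasmic genes were then highest at 120 min. For Class A2 the exon medians were 15.1%, 12.6% and 15.3% (rescaled 13.8%, 21.2% and 27%), and for Class C 75.5%, 83.8% and 62.7% (73.1%, 100% and 100%).

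The time of the highest value could be compared in genes called in both fractions. Of 22 such genes 7 were highest later in cytoplasmic than in chromatin RNA (Foxp4, Phldb1, Fchsd2, Swap70, Ell2, Zhx2 and Hivep3), 14 at the same time and 1, Itgav, earlier. Of 20 genes called in chromatin and nucleoplasmic RNA, 8 were later in nucleoplasmic RNA, the same 7 and Cav1, and 12 at the same time. The count rests on the scaling: rescaled, 15 of 28 were later in cytoplasmic and 14 of 28 in nucleoplasmic RNA. Ell2, highest at 30 min on chromatin and at 60 min in the others, was not among the later genes after rescaling. The share later in cytoplasmic RNA was 31.8% for Class B, 73.0% for Class A2 and 56.2% for Class C (rescaled 53.6%, 64.7% and 55.6%). For nucleoplasmic RNA it was 40%, 62.9% and 45.7% (rescaled 50%, 65% and 54.9%). The chromatin timing is treated as part of the choice of the genes and left little room for an earlier soluble peak. Nothing is therefore read from the order.

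Intron reads, which include those of RNA not yet spliced, were set against exon reads next. The intron share was the share of a gene's whole-gene reads that lay outside its exons, in 37 genes whose whole-gene and exon values belonged to the same transcript and which had at least 50 whole-gene reads in the library. Reads from other genes within an intron are part of it, as are any reads from introns already cut out. Since the strand used in counting is not given in the sources used here, antisense RNA cannot be told apart. In chromatin RNA the median share was 81.6%, 83.4%, 89.0%, 84.6% and 69.0% at 0, 15, 30, 60 and 120 min (35, 35, 37, 37 and 37 genes). In nucleoplasmic RNA it was 15.4%, 30.5%, 43.5%, 33.0% and 9.21%, and in cytoplasmic RNA 12.5%, 14.8%, 18%, 6.95% and 9.42%. The share rose from 0 to 30 min in 31 of 35 genes in chromatin and in 34 of 34 in nucleoplasmic RNA. Between 60 and 120 min it went down in 37 of 37 genes in chromatin and in 34 of 35 in nucleoplasmic RNA. In cytoplasmic RNA it went up over this step in 23 of 34 genes and down in 11. In Class A2 the nucleoplasmic median was highest at 15 min with 54.9% (46 genes), against 42.6% at 30 min.

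**Figure D4:**
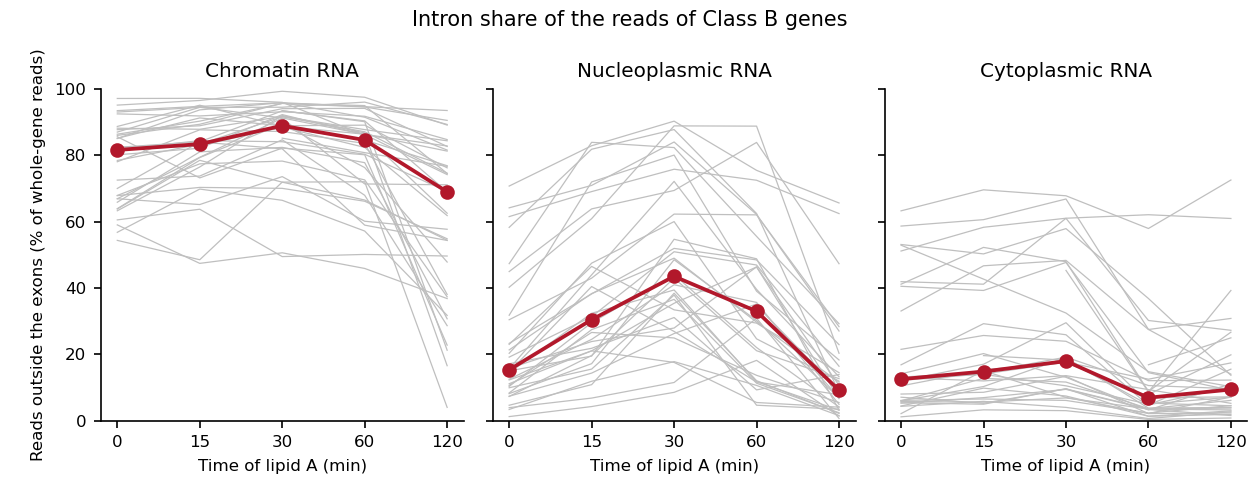
Grey lines are single Class B genes with at least 50 whole-gene reads and red points the median over genes, as the percent of whole-gene reads outside the exons in each fraction. The chromatin median goes from 89.0% at 30 min to 69.0% at 120 min and the nucleoplasmic median from 43.5% to 9.21%.

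Single genes spread widely. At 30 min in chromatin RNA the highest intron shares were those of Zhx2, Hivep3, St3gal1 and Klf7. Zhx2 had 99.3% of 12695 reads (95% exact binomial interval 99.2% to 99.5%) outside exons and St3gal1 95.9% of 69343 reads (95% exact binomial interval 95.8% to 96.1%). The lowest were those of Lcat, Nupr1, Pvr and Dyrk2. Lcat had 49.5% of 200 reads (95% exact binomial interval 42.4% to 56.6%) and Nupr1 50.6% of 3201 reads (95% exact binomial interval 48.9% to 52.4%), and both are short genes. The lowest share in any chromatin library was that of Atp2b4 at 120 min, when 4.03% of 770 reads (95% exact binomial interval 2.75% to 5.67%) lay in introns, after 72.1% of 3135 reads (95% exact binomial interval 70.5% to 73.6%) at 60 min. Col18a1 went from 86.8% of 6024 reads (95% exact binomial interval 85.9% to 87.6%) at 60 min to 16.6% of 729 reads (95% exact binomial interval 14% to 19.5%) at 120 min. At 120 min most chromatin reads of these last 2 genes lay in exons.

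Gene length went with the change of exon values relative to whole-gene values on chromatin. The exon-to-gene density is the exon RPKM divided by the whole-gene RPKM of a gene, and a negative log2 change means that exons gained less than the gene as a whole. In chromatin RNA at 30 min its median log2 change from 0 min was -0.66 over 35 genes with at least 10 exon reads, and 31 were below 0. The 17 genes longer than 50 kb had a median of -1.37 and the 18 shorter ones -0.40. Zhx2, at 145 kb, had the most negative value with -2.88. Across the 35 genes Spearman's rho between length and this change was -0.59 and Pearson's r with log length -0.59 (-0.50 without the 2 genes farthest from the median length), a description across genes of 2 libraries that share depth and the 0 min values. Hivep3, the longest gene, went the other way with 0.50, as did Nupr1, Oaf and Lcat with 0.27, 0.31 and 0.36. At 60 min the median was -0.21, and at 120 min it was 0.63 with 3 genes below 0 and rho at 0.02. Over 350 classed genes at 30 min the median was -0.20 and rho -0.32. In Class A2, 30 of 39 genes were below 0 at 30 min with a median of -0.18 and rho of -0.45. At 15 min the median was -0.60 and rho -0.59 in Class A2, with 38 of 39 genes below 0, and -0.55 and -0.60 in Class C (70 genes). Class B at 15 min had a median of -0.33 and rho of -0.14, with 29 of 35 genes below 0. The density cannot exceed gene length divided by exon length, so genes that are mostly intron can start higher and have more room to fall. How much of the link with length rests on this limit was not tested. A negative change also does not mean that exon density was below that of the whole gene.

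**Figure D5:**
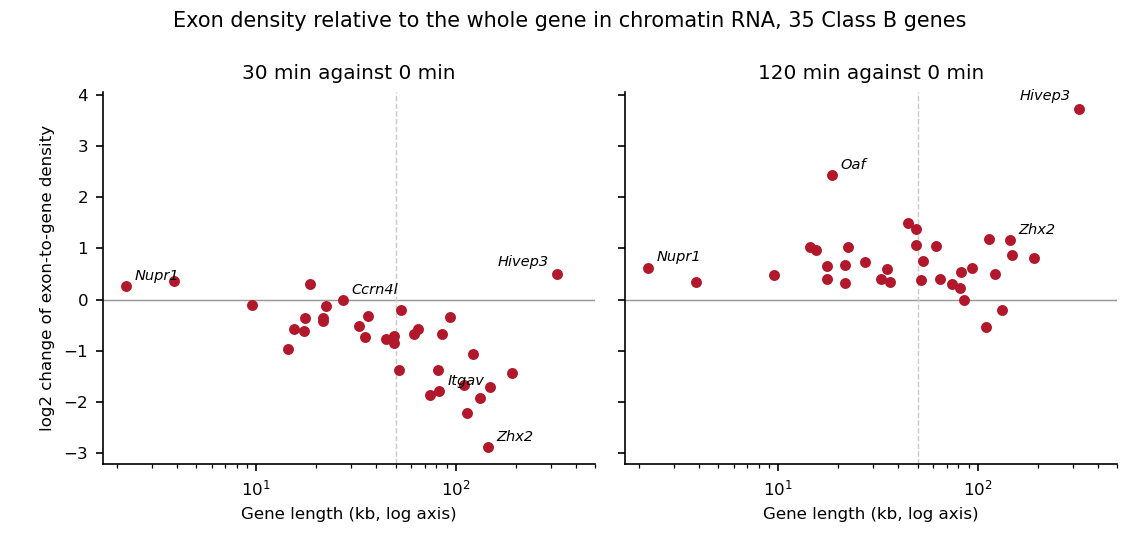
Points are 35 Class B genes, with gene length on a log axis in kb against the log2 change of exon-to-gene density in chromatin RNA from 0 to 30 min (left) and from 0 to 120 min (right), and a dashed line at 50 kb. At 30 min most long genes lie below 0, down to Zhx2 at -2.88, with Hivep3 above it, and at 120 min all but 3 lie above 0.

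The 46 genes could also be set against pathway lists. The lists held 32 NF-kappaB feedback and target genes in the exon table (33 listed), 27 immediate early genes and 30 interferon-stimulated genes. Of these, 0 were among the 46. Nfkb1, a Class B gene on the NF-kappaB list, had been left out by name. The set makes up only 45 of the 10020 genes in the exon table, so the overlap of 0 is not read as a result. In chromatin RNA 31 of 32, 18 of 26 and 27 of 30 genes of these lists that passed the filter were called higher, and 0 lower. Over all genes 6.51% were called higher and 3.91% lower. Median log2 ratios at 60 min in cytoplasmic RNA were 4.15 for the NF-kappaB list, 2.62 for the immediate early genes and 0.85 for the interferon-stimulated genes, beside 1.84 for Class B. At 120 min they were 4.08, 0.36 and 3.79, beside 1.54. A wider list of transcription and chromatin regulators held 6 Class B genes (Klf7, Hivep1, Hivep3, Jdp2, Prdm1 and Ell2) among 54. Of its 47 genes in the exon table, which lacks Jdp2, 24 were called higher in cytoplasmic RNA and 2 lower. Over all genes 4.48% were called higher there and 1.88% lower, which stands beside the counts of the lists that follow too. A list of cell surface genes had 25 of 44 called higher and 2 lower, and held Jag1, Itgav and Adora2b. A list of kinases and signalling scaffolds had 25 of 54 called higher and held 0 Class B genes. That 0 rests on how the list was drawn up, since it leaves out Dyrk2, Stk40, Cdk5r1 and D8Ertd82e. The list of regulators likewise leaves out Bcor and Foxp4, so these overlaps are not read as results. By promoter label, the highest cytoplasmic log2 ratio had a median of 2.14 over 33 Class B genes labelled CpG and 2.23 over 12 labelled LCG, and their median lengths were 55.2 kb and 33.9 kb.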

How the data were processed

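RNA of 3 fractions was measured at 5 times in 15 libraries, 1 per group. Per the labels' protocols, ribosomal RNA was removed and libraries kept strand by the dUTP method; per the submitters' processing notes, reads were aligned with TopHat (version not given in the sources used here) to mm9. No source used here names the counting tool or annotation. Per the file headers and accompanying text, the authors deposited RPKM values in 2 tables. The first, of 10020 genes, turned out to be relative to exon length and the second, of 560 classed genes, to whole-gene length. A further 3 per-sample columns could be tied to no labelled sample and stayed out.

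Values were turned back into whole reads by finding 1 length per gene that made all 15 values whole (tolerance 0.02 reads, wider for values of many reads), which succeeded for 100% of genes in both tables. Lengths lay within 5% of a GENCODE transcript for 76.5% of 9053 exon lengths and within 5% of a gene or transcript span for 91.4% of 513 whole-gene lengths. Of the 45 members with exon values 39 had the same transcript in both tables and 6 (Foxp4, Fchsd2, Ankrd33b, Bcor, Ppfibp1 and Stk40) another one of the same symbol, which have no intron share; 2 (Cdk5r1 and Rep15) have no intron. A value without reads had been replaced by 0.0191 RPM, the worth of 1 read in the 15 min chromatin library, in the exon table. Depth was 15.6 to 52.3 M reads, and a single read per kb of length equalled 0.0191 to 0.0642 RPKM. Ratio and share intervals are exact binomial at 95%. PCR copies carried no marks, so error beyond counting is not in them. The call rule (0.5 RPKM pseudocount, 1 RPKM filter, 4-fold) was run over the whole exon table and tested on simulated data.

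The gene shown as Septin11 is listed as a number in the class table and was named through its RefSeq accession; RefSeq tables of GRCm38.p6 gave names and promoter windows, and no coordinate was moved between builds. Members, lists, role groups, motifs and the rules for named genes were chosen with earlier results of these data known. Values in every library are given for the genes with the largest and smallest changes, shares left at 120 min and intron shares, by those rules, chromatin being ranked on whole-gene values; Prag1 and Nocturnin keep the older symbols D8Ertd82e and Ccrn4l. The length comparison, its 50 kb limit and the 2-fold rule for opposite steps were chosen after values were seen. Alternatives were other pseudocounts, fold limits and filters, rescaling, whole-gene values, leaving out a library and every Class B gene. Python 3.11.15, numpy 2.4.6, scipy 1.17.1 and pandas 2.3.3 were used.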

Additional observations from a re-analysis of the deposited data

Results flagged for a closer look

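Hivep3 moved in opposite directions between 60 and 120 min, by more than 2-fold in each fraction: the log2 step was -1.86 in chromatin RNA, 1.07 in nucleoplasmic RNA and 1.27 in cytoplasmic RNA (exon values, 1 library each). The difference between the fractions was not tested.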

How the results depend on the processing

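No paired analysis was possible because the results come from no test: a change compares 1 library with the 0 min library of its fraction. Fractions share the 5 times, and a test that pairs them by time was not run. Of 151 alternative values, 117 stayed within the range set for them (1.5 times for a count, otherwise the 95% order-statistic interval of the median over genes) and 34 moved. Calls in chromatin RNA stayed within 1.5 times under every alternative except leaving out the 60 min library, added after seeing the data, which left 17 in chromatin, 12 in nucleoplasmic and 12 in cytoplasmic RNA. At 2-fold 42 and 40 genes were called in nucleoplasmic and cytoplasmic RNA, beside 10.4% and 13.3% of all genes, and by whole-gene values 8 and 6. By whole-gene values the median log2 ratio was 0.26, 1.8 and 0.71 for chromatin at 15, 30 and 120 min, 0.081, 1.01 and 0.74 in nucleoplasmic RNA at 15, 60 and 120 min, and 0.18, 0.83 and 0.91 in cytoplasmic RNA at 30, 60 and 120 min. Whole-gene shares left at 120 min were 23.8%, 26.9% and 35.7% in the 3 fractions, and 1 of 6 genes was later in cytoplasmic and 3 of 8 in nucleoplasmic than in chromatin RNA. Rescaling gave 1.66, 2.84 and 1.82 for chromatin at 30, 60 and 120 min, 2.13 in nucleoplasmic RNA at 120 min, 1.45 and 2.03 in cytoplasmic RNA at 60 and 120 min, 100% left in cytoplasmic RNA, and 15 later genes in cytoplasmic and 14 in nucleoplasmic RNA. With a pseudocount of 0.1 the chromatin medians were 1.65 and 2.64 at 30 and 60 min, and with 1 the 60 min medians were 2.03 in chromatin and 1.57 in cytoplasmic RNA. The cause of these moves was not tested, except that whole-gene values are lower for spliced RNA by construction. All 15 intron shares stayed within range under read minimums of 20 and 200 and when reads were summed, and every Class B gene gave 21 of 21 values within range. Depth limits Rep15, Lcat, Clcf1, Cav1, Cdk5r1, Ankrd33b and Adora2b in cytoplasmic RNA, each with 11 or fewer exon reads at 0 min.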
